A study of Mus musculus with 4 samples.

Results

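Mammalian coding genes are not always separated by free sequence, and a histone mark laid down in transcribed bodies can fall where a pair of them lies on the same DNA. The peaks described here are the H3K36me3 peaks on chromosomes 1 to 19 that shared at least 1 bp with the bodies of protein-coding genes of 2 or more symbols in the GENCODE M21 annotation of mouse build GRCm38. They numbered 544 of 12242 control peaks and 106 of 2732 Setd2-KO peaks. The rule uses positions and strands only, no measured height. The peaks came from primary renal tubular epithelial cells of the kidney cortex of C57BL/6 mice. Control cells were SETD2fl/fl without Cre, and Setd2-KO cells were SETD2fl/fl KspCre/+, so both groups carried the floxed alleles and differed in a Cre driven by the kidney-specific Ksp promoter. An antibody against H3K36me3 was used for the pull-down, with 1 immunoprecipitated library per genotype and 1 matching input. Ages and numbers of mice were not given in the labels.

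H3K36me3 is the trimethyl form of lysine 36 of histone H3. In mammals SETD2 writes it while bound to elongating RNA polymerase II, so the mark builds up along transcribed bodies towards their 3′ ends and is low at promoters. Where a pair of genes overlaps, a peak carries no strand and cannot name the gene whose transcription brought the mark. Overlaps come in classes with different geometry. In a convergent pair the 3′ ends run into each other, in a divergent pair the 5′ ends do, in a nested pair a gene lies whole inside another on the opposite strand, and same-strand overlaps include readthrough genes, which are annotated models that join neighbouring genes in 1 transcript. A peak in several overlaps was placed by the pair with most bases of the peak in both bodies.

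Of the 12198 control peaks on chromosomes 1 to 19, 11327 touched exactly 1 coding gene and 327 touched none, so the 544 peaks made up 4.46% (95% Clopper-Pearson interval 4.10 to 4.84). In the Setd2-KO list 2722 peaks lay on these chromosomes, of which 2479 touched 1 coding gene and 137 none, and the 106 peaks made up 3.89% (3.20 to 4.69). These intervals cover counting error only, and peaks of the same gene are not independent. With 1 ChIP library per genotype there was no replicate, so no difference between genotypes could be tested and no p-value is given. The lists hold no library totals, and the study's reporting summary gives nearly equal numbers of uniquely mapped reads for the control and Setd2-KO ChIP libraries. Of 10 proximal tubule marker genes 8 carried a control peak, among them Lrp2, Cubn and Slc34a1, and 3 a Setd2-KO peak. The 7 markers of later nephron segments, from the loop of Henle to the collecting duct, had none in either list. Among markers of other cells, Podxl of podocytes, Kdr and Egfl7 of endothelium and Cx3cr1 of immune cells carried control peaks, 4 of 15 listed. Cx3cr1, annotated over 168264 bp, owed its mark to shared peaks alone: Wdr48 and Csrnp1 overlap it, and it had no peak in its own sequence. Setd2 itself had 5 control peaks over 3077 bp and no Setd2-KO peak, none of them shared with another coding gene, and a mark along the body does not check the deletion.

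Control peaks lay in 133 convergent and 8 divergent overlaps, and 3′ end sequences are shown for the leading convergent pairs because the shared DNA of this class is bounded by them. Each line gives at most 30 bases of the gene's own strand around the last poly(A) signal word within 50 bases of the annotated 3′ end, from RefSeq GRCm38.p6 sequence, with the word AATAAA or ATTAAA in capitals.
Ctnnb1, chr9:120960475-120960504, plus strand: aaatggttcagaATTAAActtttaattcat
Pdcd11, chr19:47131829-47131858, plus strand: agcccaagggaaATTAAAagttttctctga
Rabgap1, chr2:37566403-37566432, plus strand: aacagcatattcATTAAAtattttggtaca
Strbp, chr2:37483228-37483255, minus strand: acatgcaatcatAATAAAtatataaaaa
Ptbp1, chr10:79864739-79864768, plus strand: tggtgtactcacATTAAAtcttaaaaaaaa
Plppr3, chr10:79860479-79860508, minus strand: gcttaccaggccATTAAAttcaatctacta
The 3′ ends of Rabgap1 and Strbp each lie inside the other gene, 83227 bp apart, and those of Ptbp1 and Plppr3 likewise at 4297 bp. Of 263 genes in convergent pairs with a control peak, 177 (67.3%) had either word on their own strand in the last 50 bases, against 71.8% of all 20780 coding genes. A match is a description of the letters. For Ulk4 and Calhm2, the partners of Ctnnb1 and Pdcd11, neither word was found in this window.

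A second set of sequences lies under peaks that the Setd2-KO list kept, the coding exons of zinc finger genes. The windows below are the coding strand around the summit (the highest point of a peak) of the control peak with the highest fold enrichment, in Zfp866, and around that of a convergent pair, in Zfp612, both in an intron of the partner gene. Capitals mark TGTGGNAA, which spans codons for cysteine, glycine and the start of lysine that recur in zinc fingers of this type.
Zfp866, chr8:69766344-69766595, minus strand: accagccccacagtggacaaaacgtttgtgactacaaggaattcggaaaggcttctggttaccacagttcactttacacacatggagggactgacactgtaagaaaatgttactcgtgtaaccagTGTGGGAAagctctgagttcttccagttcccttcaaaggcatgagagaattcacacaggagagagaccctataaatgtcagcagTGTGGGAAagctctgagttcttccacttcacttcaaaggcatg
Zfp612, chr8:110089037-110089288, plus strand: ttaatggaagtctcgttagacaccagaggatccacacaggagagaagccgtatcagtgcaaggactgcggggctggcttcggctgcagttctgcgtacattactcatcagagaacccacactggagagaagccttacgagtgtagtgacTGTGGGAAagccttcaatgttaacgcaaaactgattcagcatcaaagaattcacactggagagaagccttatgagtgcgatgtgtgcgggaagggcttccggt
This word stood on either strand in 13 of 28 windows of 300 bases around control summits with a zinc finger gene (46.4%), in 7.90% of all 544 and in 7.61% of all control peaks on these chromosomes. In counts of peaks, a zinc finger gene is one whose symbol begins with Zfp, Zscan, Zkscan or Zik.

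Same-strand overlaps held 259 of the 544 control peaks (47.6%), convergent overlaps 178 (32.7%), nested opposite-strand overlaps 90 (16.5%) and divergent overlaps 14 (2.57%). A further 3 peaks bridged genes that lie next to each other without sharing a base. The Setd2-KO list had 53, 33, 11, 8 and 1 in the same order. Control peaks fell wholly inside both bodies in 88.2% of cases. Near the 1 bp limit of the rule, 14 control peaks had under 50 bp in both bodies, and 40 peaks of exactly 1 gene had another within 200 bp. Their median length was 418 bp and their median fold enrichment, the pileup of ChIP reads at the summit over the local input background, was 3.83. Peaks in exactly 1 coding gene had medians of 412 bp and 3.83. In the Setd2-KO list the medians were 418 bp and 4.04, against 377 bp and 3.85 for peaks in exactly 1 gene.

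Of the 544 control peaks 70 overlapped a Setd2-KO peak, 12.9% (10.2 to 15.98), the same as the 12.9% of all 12198 control peaks on these chromosomes that did, and beside 12.5% (11.9 to 13.1) of peaks in exactly 1 coding gene. The share was 13.5% in same-strand, 8.89% in nested and 10.7% in convergent overlaps. In divergent overlaps it was 6 of 14 (42.9%, 17.7 to 71.1), of which 4 were in 3300002I08Rik and Gm10130. With a zinc finger gene under the peak it was 20 of 28 (71.4%, 51.3 to 86.8), and without one 50 of 516 (9.69%, 7.28 to 12.6), against 10.8% of peaks in exactly 1 coding gene without a zinc finger gene. Zinc finger peaks in exactly 1 coding gene also overlapped more often. Leaving them out took the share there from 1415 of 11327 to 1169 of 10823. Among the 544, length went with the share: 2.82% of peaks under 400 bp, 14.3% of those from 400 to under 1000 bp and 61.4% of those of 1000 bp or more overlapped, beside 6.26%, 13.3% and 54.4% of peaks in 1 gene. The 70 had a median fold enrichment of 4.27, and the Setd2-KO peaks they met 4.25, with the Setd2-KO value lower in 39. Median length was 730 bp against 607 bp, with the Setd2-KO peak shorter in 46.

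Read from the other side, 73 of 106 Setd2-KO peaks overlapped a control peak, 68.9% (59.1 to 77.5), against 61.1% of all 2722 Setd2-KO peaks on these chromosomes and 60.4% of those in exactly 1 coding gene. All 25 with a zinc finger gene did, and 59.3% of the other 81. In exactly 1 coding gene, too, the share was lower without a zinc finger gene, 56.9% against the 60.4% of all. Of the 33 among the 106 without overlap, 28 lay in a pair of which at least 1 gene carried a control peak elsewhere, and 5 in pairs with none.

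**Figure D1:**
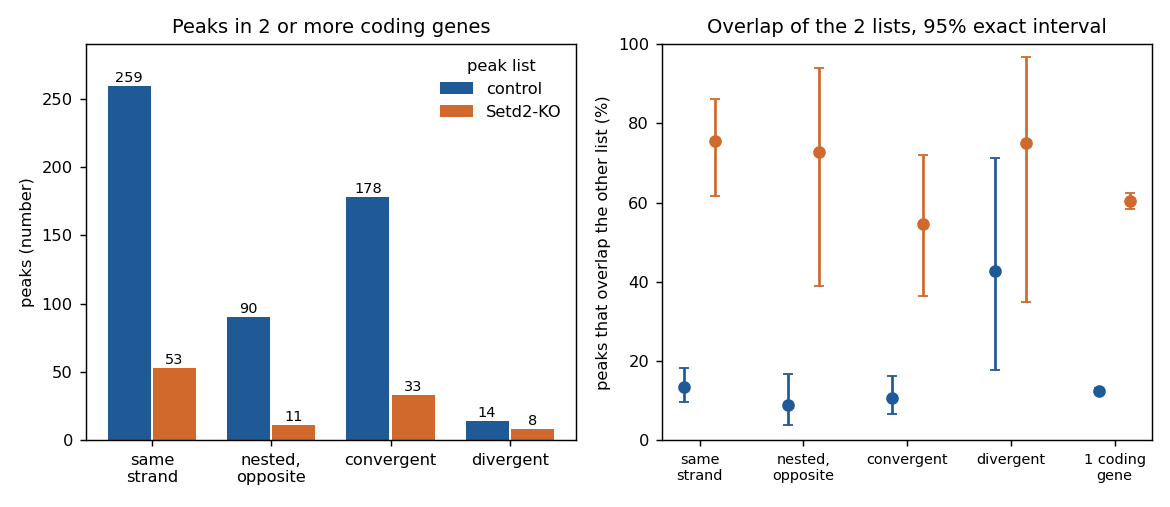
Left, number of peaks in 2 or more coding genes in each list by strand relation. Right, percent of those peaks that share at least 1 bp with a peak of the other list, with 95% exact binomial intervals, beside peaks in exactly 1 coding gene. In the control the divergent class, with 14 peaks, has an interval of 17.7 to 71.1%, and the other classes lie between 8.89% and 13.5%.

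Coverage by peaks differed between the classes of overlap. Convergent overlaps summed to 3.96 Mb and 1.98% of their bases lay under control peaks, close to the 2.08% measured in the last 5 kb of sequence belonging to 1 coding gene. Divergent overlaps summed to 1.37 Mb with 0.541% under control peaks, beside 0.579% in the first 5 kb of sequence belonging to 1 gene. Without predicted gene names the divergent share was 0.110% in the control and 0.0583% in Setd2-KO, and the convergent control share 1.95%. The pair 3300002I08Rik and Gm10130 alone had 3949 bp under control peaks, beside 7415 bp in all divergent overlaps. Nested opposite-strand sequence, 6.89 Mb, had 0.603% under control peaks and sequence of exactly 1 coding gene over its whole 966 Mb had 0.611%. Same-strand overlaps, 13.1 Mb, had 1.07%, which was 0.564% without readthrough genes. The Setd2-KO list covered 0.411% of convergent, 0.240% of divergent, 0.0681% of nested and 0.269% of same-strand overlap, against 0.132% of sequence in exactly 1 gene. These shares are descriptions of 1 library each, with no test of the differences.

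**Figure D2:**
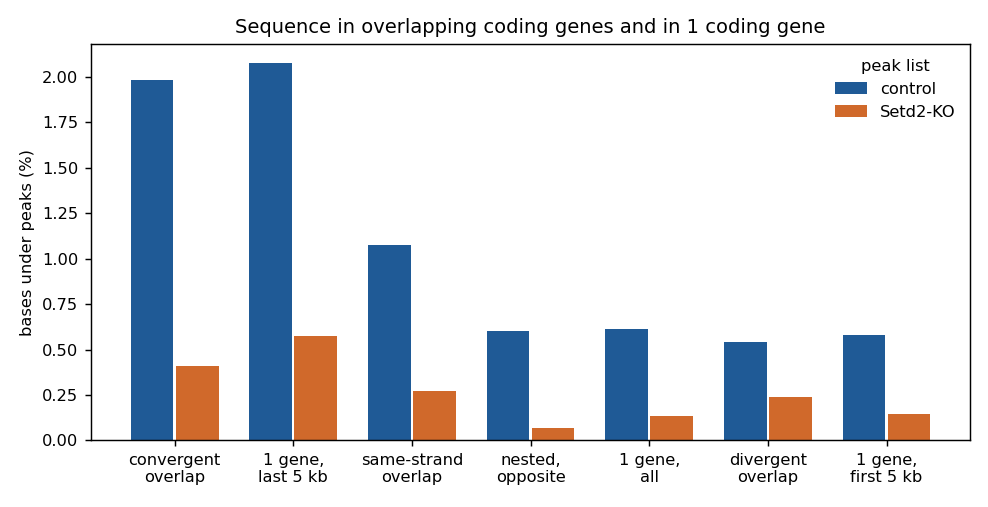
Percent of bases under control (blue) and Setd2-KO (orange) peaks in sequence shared by coding genes, by strand relation, and in sequence of exactly 1 coding gene. Convergent overlap (1.98% in the control) sits beside the last 5 kb of single genes (2.08%), and divergent overlap (0.541%) beside their first 5 kb (0.579%). Without predicted gene names, not drawn, the divergent control value was 0.110%.

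Most annotated overlaps carried no peak. Of 873 convergent overlaps 133 held a control peak (15.2%, interval 12.9 to 17.8), of 1303 same-strand overlaps 107 (8.21%), of 531 nested overlaps 39 (7.34%) and of 581 divergent overlaps 8 (1.38%, 0.596 to 2.70). The median overlap was 1186 bp in convergent and 469 bp in divergent pairs, so length differed along with orientation and its part was not tested. Convergent overlaps were then grouped by how many of their genes had a control peak of their own, one that touched no other coding gene. With 0 such genes 51 of 507 overlaps held a peak (10.1%, 7.58 to 13.0), with 1 such gene 64 of 308 (20.8%, 16.4 to 25.7), and with both 18 of 58 (31.0%, 19.5 to 44.5). Counting only peaks that lay wholly inside the overlap, the shares were 8.28%, 14.6% and 22.4%. Their median overlap shortened from 1373 to 1038 and 849 bp over the same groups. Divergent overlaps held a peak in 1 of 325, 7 of 210 and 0 of 46 pairs. The exact upper bound of the last share is 7.71%. Same-strand overlaps held a peak in 80 of 1201 pairs (6.66%), 26 of 96 (27.1%) and 1 of 6. In nested overlaps, where no pair had both genes so marked, it was 30 of 435 (6.90%) and 9 of 96 (9.38%). A higher share with 1 such gene was thus not particular to convergent overlaps.

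**Figure D3:**
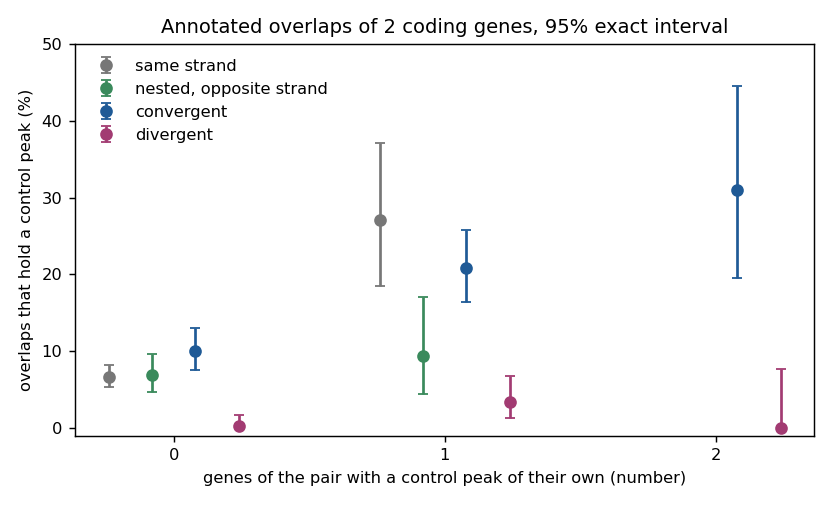
Percent of annotated overlaps that hold a control peak, by the number of genes of the pair with a control peak touching no other coding gene, with 95% exact intervals. Convergent overlaps run from 10.1% to 31.0% and divergent overlaps stay at or under 3.33%. From 0 to 1 such gene same-strand overlaps go from 6.66% to 27.1% and nested ones from 6.90% to 9.38%. The 6 same-strand pairs with both genes so marked are not drawn.

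The 178 convergent control peaks lay close to 3′ ends by definition, because 3′ ends bound the shared DNA of this class. The median overlap of their 133 pairs was 4558 bp, so the distances describe the geometry of the class. From summit to the nearer 3′ end the median distance was 1128 bp and to the farther one 4670 bp, while the nearer 5′ end was a median of 15543 bp away and never less than 1881 bp. The summit fell in the shared sequence for 153 of the 178, and in a 3′ UTR of either gene for 77 (43.3%), of both for 14. Of the 133 pairs 18 had both genes marked by peaks of their own, 64 had 1 and 51 had neither.

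Of the 133 convergent control pairs, 90 also overlap as RefSeq coding bodies, 34 do not and 9 have a gene with no coding entry there. Ctnnb1 and Ulk4 are among the pairs that overlap in GENCODE and not in RefSeq. Ctnnb1 encodes β-catenin, the adhesion and Wnt signalling protein, and Ulk4 a protein kinase-like protein. Their 3′ parts share 5157 bp on chromosome 9, and control peaks covered 3469 bp of it (67.3%). A peak at chr9:120955347-120957961 filled the first part of the overlap with fold enrichment 5.28, pileup 39 and a −log10 q (q is the false discovery rate from MACS2) of 13.8. The other 2 control peaks, at chr9:120958191-120958533 and chr9:120958674-120959188, had fold enrichments 3.23 and 4.48. Setd2-KO peaks covered 947 bp, at chr9:120958341-120958954 with 3.58 and at chr9:120959601-120959933 with 3.83, and the long first peak had no counterpart. Outside the overlap Ctnnb1 had 2687 bp and Ulk4 338 bp under control peaks, the latter in 316690 bp of its own sequence.

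Pdcd11, a ribosomal RNA processing factor, and Calhm2, a channel protein, shared 26513 bp with 5 control peaks of 3.30 to 4.09 and no Setd2-KO peak. RefSeq coding bodies of this pair do not overlap. Of the 5 summits 2 fell in coding exons and 1 in the 3′ UTR of Pdcd11, and all 5 in introns of Calhm2. Pdcd11 had a further 1827 bp of control peaks in its own sequence and Calhm2 8 bp. Ptbp1, a splicing repressor, and Plppr3, a phospholipid phosphatase-related membrane protein, had control peaks of 5.58 and 4.23 over 1753 bp of a 4297 bp overlap, and 1 Setd2-KO peak of 3.03 over 646 bp inside the first. Ptbp1 had 1371 bp of control peaks in its own sequence and Plppr3 none. Those 1371 bp were the part of the first shared peak that ran past the overlap. For Pdcd11 and Calhm2 nearly all of the mark outside the overlap was in Pdcd11. Peaks inside either overlap were assigned to no gene.

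Rabgap1, a GTPase-activating protein, and Strbp, an RNA-binding protein, shared 83227 bp with 4 control peaks over 1756 bp and neither had a peak in its own sequence. Setd2-KO peaks overlapped 2 of those 4, at 3.92 and 4.24. 2010111I01Rik and Fancc, a Fanconi anaemia DNA repair gene, shared 41054 bp with 3 control peaks (1592 bp) and 1 Setd2-KO peak of 289 bp that overlapped none of them. Ttc19, an assembly factor of respiratory complex III, shared 12026 bp with Ncor1, a nuclear receptor corepressor. Its 1553 bp of control peaks were all in the overlap, while Ncor1 had 5810 bp of its own. In the Setd2-KO list 289 bp were left in this overlap.

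Other convergent pairs had nearly as many Setd2-KO bases as control bases, or more. B230307C23Rik and A630089N07Rik, with 4966 control bp, kept 4036 bp. Their longest peak reached a pileup of 67 at fold enrichment 4.92 in the control and 64 at 4.60 in Setd2-KO. The sequence under the peaks of this pair was repetitive. In the control peaks 30.7 to 68.7% of words of 32 bases occurred once in the genome, and in the Setd2-KO peaks 57.2 to 82.3%. The median of convergent peaks was 100% in each list, and the part of repeats in the result was not tested. Zfp612, a zinc finger gene, and Gm17720 had 1 peak in each list, of 1242 bp at 5.29 and 1255 bp at 5.04. For Usp8, an endosomal deubiquitinase, and its relative Usp50, 3 control peaks of 3.51 to 4.22 covered 1527 bp and 3 Setd2-KO peaks of 3.87 to 4.77 covered 1081 bp, yet only 1 of the 3 overlapped. In RefSeq the coding bodies of Usp8 and Usp50 are apart. Kif20a, a mitotic kinesin, and Cdc23, a subunit of the anaphase-promoting complex, had 676 control bp in both bodies and 1142 Setd2-KO bp, and the single control peak of 2752 bp at 3.20 lay mostly past the end of Kif20a, while 1 of the 2 Setd2-KO peaks (4.36 and 3.71) lay wholly in both.

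Nested overlaps put a gene inside the body of a longer one on the other strand. Of 39 nested pairs with a control peak, the host had control bases in sequence of its own in 15 and none there in 24. The 15 include hosts reached only by shared peaks that ran past the inner gene. Examples are Gnas with 32 bp and Gm20388, which hosts several inner genes, with 230 bp. The host had a control peak touching no other coding gene in 9 pairs and none in 30. The summit lay in an exon of the inner gene for 43 of 90 peaks (47.8%) and in an exon of the host for 4 (4.44%). Median lengths were 100789 bp for hosts and 15158 bp for inner genes, so exons take up different shares of each and the counts describe position only.

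Timp3 inside Syn3 held more control peaks than any other pair. Timp3 encodes a matrix-bound inhibitor of metalloproteinases and Syn3 a synapsin of nerve terminals. All 49135 bp of Timp3 on chromosome 10 lie within the 443772 bp of Syn3, and 19 control peaks covered 10651 bp, 21.7% of Timp3. Their fold enrichments ran from 2.72 to 5.87, the highest at chr10:86301346-86303360, and a run of 4 peaks covered the last exons. Syn3 had no control peak in its other 394637 bp. The Setd2-KO list kept 2 peaks at the 5′ part of Timp3, chr10:86300759-86301105 at 3.26 and chr10:86301501-86301865 at 4.56, together 712 bp, and none of the peaks downstream.

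**Figure D4:**
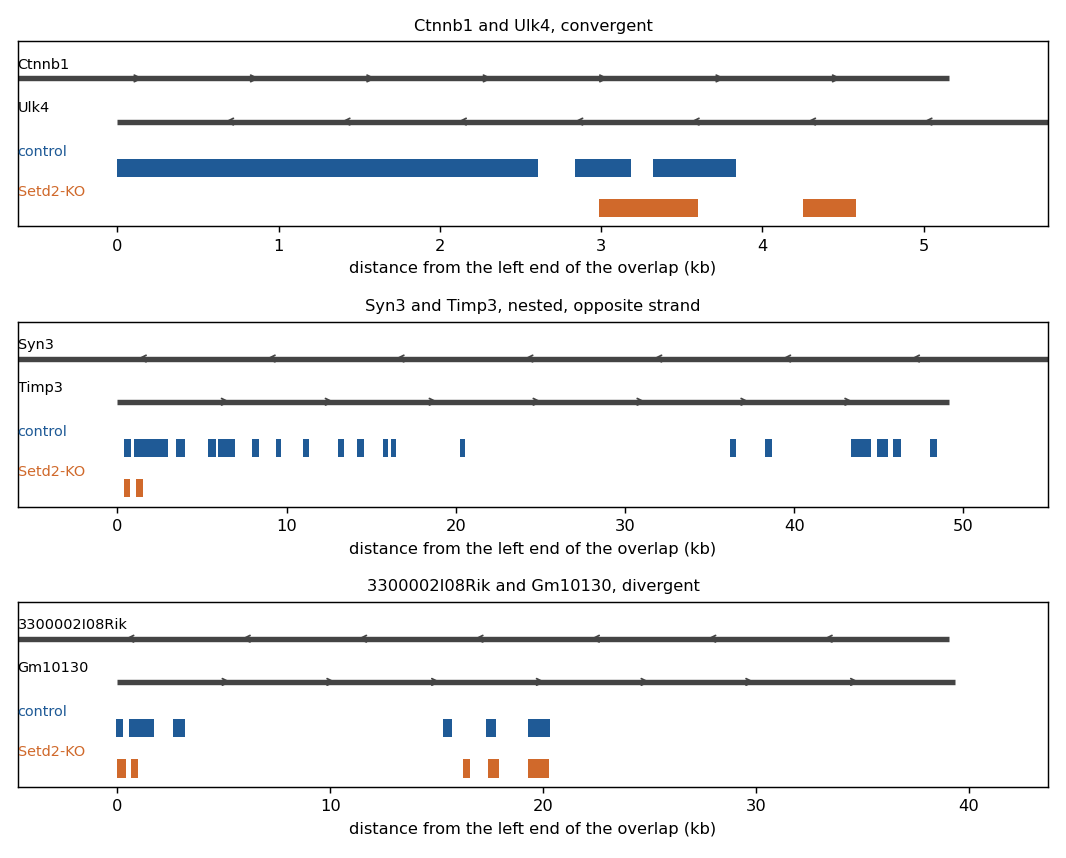
Control (blue) and Setd2-KO (orange) peaks in the overlaps of Ctnnb1 and Ulk4, Syn3 and Timp3, and 3300002I08Rik and Gm10130, with arrows for the direction of transcription and distances in kb from the left end of the overlap. Only peaks in the overlap are drawn; Timp3 holds 19 control and 2 Setd2-KO peaks.

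Ripor1 lies inside the annotated 70696 bp of Agrp, known as a hypothalamic appetite peptide. Its 5 control peaks (2812 bp, 3.43 to 4.09) were the only mark in Agrp, and 2 Setd2-KO peaks of 3.43 and 3.66 remained. RefSeq coding bodies of these genes do not overlap. Srsf2, a splicing factor of 3194 bp, lies inside Mettl23, a methyltransferase-like gene, and 2016 bp of it (63.1%) lay under control peaks. The strongest, at chr11:116850932-116852296, had fold enrichment 5.58 and pileup 53, and its Setd2-KO counterpart of 933 bp had 4.36 and 35. Mettl23 does not overlap Srsf2 in RefSeq, nor Asb3 Erlec1. Fgfr2, a growth factor receptor whose body is annotated over 2960900 bp in GENCODE, counted as host of Tacc2, a centrosomal protein, with 4 control peaks (1838 bp) and of Bub3, a spindle checkpoint protein, with 4 (1785 bp). Fgfr2 had no control peak in 1384439 bp of its own, and RefSeq gives no overlap for either pair. One Setd2-KO peak of 447 bp was in Bub3 and none in Tacc2. Erlec1, a lectin of the endoplasmic reticulum, inside Asb3, had 3 control peaks (1617 bp) and no Setd2-KO peak. Trim32, a ubiquitin ligase inside the neuronal gene Astn2, was the one nested pair with more Setd2-KO than control bases, 673 against 556 bp, in 1 peak each of fold enrichment 4.11 and 4.62 whose ends overlapped.

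Divergent pairs with a control peak were 8 in all. The 14 peaks had a median distance of 4034 bp to the nearer 5′ end and 14909 bp to the nearer 3′ end. Divergent overlaps are bounded by 5′ ends, so these distances also describe the geometry of the class. Of the 8 pairs 7 had 1 gene with a control peak of its own and 1 pair had none. 3300002I08Rik and Gm10130 held 6 of the 14, at fold enrichments of 2.75 to 5.42 over 3949 bp, and 5 Setd2-KO peaks of 3.98 to 4.77 over 2531 bp. The sequence under these 6 was repetitive: a median of 44.8% of its words of 32 bases occurred once in the genome, against a median of 100% for all 544 peaks, and its part in the result was not tested. Cdk11b, a cyclin-dependent kinase, and Gm10563 had 3 control peaks of 3.78 to 5.14 over 1348 bp and none in Setd2-KO. Dnaja3, a mitochondrial chaperone, and Coro7, a coronin, had 851 control bp and 392 Setd2-KO bp. Pes1, a ribosome biogenesis factor, shared 1 peak of 650 bp with 4930556J24Rik, its summit in a coding exon of both. Xylb, the xylulose kinase, shared 485 bp with Slc22a14, of a transporter family, and Dcp1a, an mRNA decapping factor, shared 317 bp with the calcium channel gene Cacna1d, where Setd2-KO had 578 bp. The Srsf2 peak of 356 bp, counted above as nested, also lay in Mfsd11.

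Among the 3 peaks bridging genes that do not overlap, the peak between Fth1, the ferritin heavy chain, and Best1, a chloride channel, was in both lists with 3.42 in the control and 4.25 in Setd2-KO. The peaks at Hcn2 and Polrmt and at Maf1 and Gm35339 had control fold enrichments of 3.96 and 4.62. The latter, of 1512 bp, shared 47 bp with a Setd2-KO peak of 369 bp at 2.96, and the former overlapped no Setd2-KO peak.

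Same-strand overlaps were largely annotated readthrough models. Of the 259 control peaks 212 involved a readthrough gene, and 61 of the 221 such genes in the annotation lay under a control peak of the set. Gm20388, annotated over 4434882 bp at chr8:119910841-124345722, accounted for 69 peaks shared with 19 other genes, and only 230 of the 31565 bp under control peaks in it lay outside those genes. Chromosome 8 accordingly held 93 of the control peaks, and 24 without Gm20388. The largest partner of Gm20388 was Gas8, a ciliary gene, with 13 control peaks over 6304 of 17817 bp (35.4%) and 312 Setd2-KO bp. Among its partners on the opposite strand the largest were Ankrd11, a chromatin regulator, with 6 peaks over 2672 bp and Zdhhc7, a palmitoyltransferase, with 4 over 2011 bp.

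Srcap, the ATPase that loads histone variant H2A.Z, and Gm42715 shared 16 control peaks over 10524 of 41636 bp, at fold enrichments of 2.72 to 4.88 and spread along the body. A single Setd2-KO peak of 419 bp at 3.38 overlapped none of them. Zc3h11a, an mRNA export factor, with Gm38394 had 9 control peaks (4797 bp, 2.94 to 4.70) and 4 Setd2-KO peaks (1604 bp, 3.50 to 4.63). Egfl7, secreted by endothelium and also on the list of endothelial markers, shared 4303 bp with Gm20532 in 5 control peaks and 323 bp in 1 Setd2-KO peak.

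Zinc finger genes stood at the other end. Zfp729b and Gm49345 on chromosome 13 had 4427 control and 4779 Setd2-KO bp, in 2 peaks of each list that matched in position. The peak over the coding exon of Zfp729b, chr13:67591012-67594218, had a fold enrichment of 9.37 and pileup of 70 in the control and, at chr13:67591244-67594176, of 7.04 and 61 in Setd2-KO. Its neighbour in an intron had 5.94 and 6.50. Zfp866, whose exon sequence is printed above, had the highest control value, 9.88 with pileup 75, and 4.58 with pileup 57 in Setd2-KO. With its partner it kept 2413 of 4223 bp. Zfp708 with Gm28557 kept 3393 of 3923 bp with fold enrichments of 3.94 to 5.23 in the control and 4.35 to 6.23 in Setd2-KO. Zfp58 with Gm26965 kept 2542 of 3103 bp, its strongest peak being 8.18 in the control and 5.11 in Setd2-KO, and Zfp729a with Gm49345 kept 2353 of 3947 bp. AW146154 with Gm20449 kept 3195 of 4689 bp, from a highest control peak of 6.93 to 6.15 in Setd2-KO. Neither symbol meets the naming rule for zinc finger genes, so their 6 control peaks count among the 516 others. A strong control peak in Zfp865 with Gm44973 reached 6.99, and the pair kept 942 of 1666 bp with a highest Setd2-KO value of 4.63. Under the zinc finger peaks the sequence was repeated more often: a median of 90.1% of 32-base words were unique in 28 control peaks, with 14 at 90% or more, and 84.5% of the 516 other peaks were at that level.

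By pair, 290 had a control peak and 78 a Setd2-KO peak, with 69 in both (23.8% of the control pairs and 88.5% of the Setd2-KO pairs). In 61 of the 69 the Setd2-KO list covered fewer bases, with medians of 1456 bp in the control and 514 bp in Setd2-KO. Convergent pairs were in both lists in 20 of 133 cases (15.0%), nested in 9 of 39, same-strand in 35 of 107 and divergent in 4 of 8. The 9 pairs found in Setd2-KO alone were 6 convergent and 3 same-strand. A single peak made up the whole control mark in 161 of the 290 pairs.

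**Figure D5:**
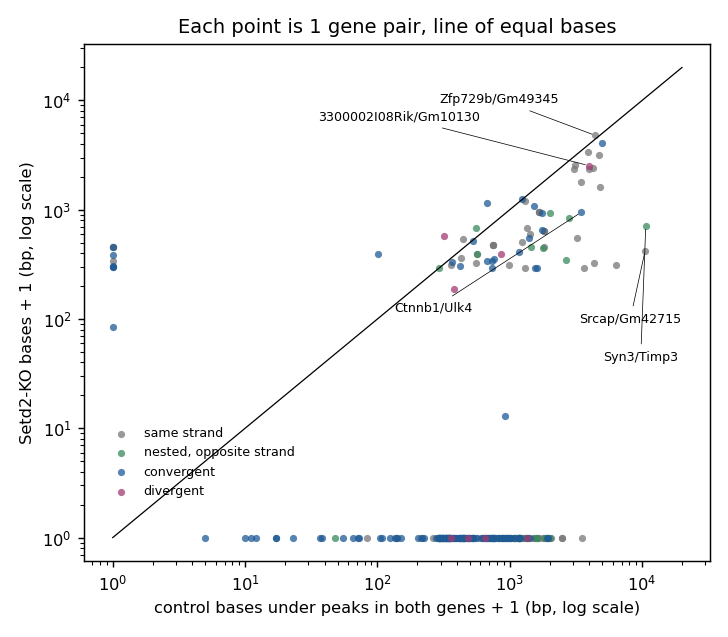
Bases under peaks in both gene bodies of each pair, control on x and Setd2-KO on y, both plus 1 bp on log axes, coloured by strand relation, with a line of equal bases. Points along the lower edge are pairs with no Setd2-KO peak, and 61 of the 69 pairs with peaks in both lists lie below the line.

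Sharing a peak decided for 324 of the 4272 coding genes touched by a control peak whether they counted as marked at all (7.58%, 6.81 to 8.42), since they had no control base in sequence of their own. Of these, 74 had no sequence of their own. In the Setd2-KO list the count was 116 of 1613 (7.19%). Predicted or clone-named genes made up 81 of the 324 in the control. Of 1844 such genes 87 lay under a control peak of the set, 60.8% of the 143 of them with any control peak, and 81 of the 87 had no mark of their own. Among all coding genes 509 of 20780 (2.45%) lay under a control peak of the set and 140 (0.674%) under a Setd2-KO one. The 509 were 11.9% of the 4272 with any control peak, and 324 of the 509 had no mark of their own.

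The functional lists give the genes this touched. Of 133 genes of mitochondrial energy metabolism 6 lay under a shared control peak and none under a shared Setd2-KO peak. They included Atp5o of ATP synthase (1773 bp) and Cox6c and Cox4i1 of cytochrome oxidase (421 and 415 bp), and 4 of the 6 had no control peak base in their own sequence. The Atp5o entry is itself a readthrough gene, annotated over 242585 bp, and RefSeq coding bodies of Atp5o and its partner Cryzl1 do not overlap. Cox4i1 shared its peak with the readthrough gene Gm20388. Mitochondrial ribosome genes were 3 of 78 (Mrpl47, Mrps25 and Mrps18a) and cytosolic ribosome genes 1 of 96 (Rpl13a, 447 bp). Of 419 zinc finger genes 11 were under control peaks of the set and 10 of these under Setd2-KO peaks. Solute carriers counted 7 of 358 and none in Setd2-KO. RNA splicing and binding genes were 8 of 162, led by Srsf2 and Hnrnpul2, and 3 in Setd2-KO. Ubiquitin pathway genes were 15 of 311, among them Usp8, Usp50, Ube2v1 (1362 bp) and Ubr4 (1173 bp), and 5 in Setd2-KO. DNA repair and replication genes were 6 of 105 and 3, vesicle traffic genes 5 of 218 and 1, and transcription and chromatin genes 5 of 165 and none. In the gene clusters whose members share 3′ exons, none of 43 genes had a peak in either list.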

How the data were processed

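H3K36me3 ChIP and input libraries of primary renal tubular epithelial cells were single-end reads of a NextSeq 500 after crosslinking with 1% formaldehyde. The submitters' processing notes name cutadapt 1.9.1, Trimmomatic 0.35, FastQC, Bowtie2 2.2.6, MACS2 2.1.1 and ChIPseeker, and build GRCm38. The authors deposited 1 MACS2 peak list per genotype, called against input. Its pileup is a signal of ChIP reads at the summit, its fold enrichment a ratio to the local background, and its p- and q-values are deposited as −log10. The study's methods name a p-value limit, and its reporting summary a false discovery rate with a fold limit. Most deposited peaks lie below that fold in the fold enrichment column, so which filter gave the lists was not settled from the sources used here. The study's reporting summary describes the ChIP material in one entry as kidney cysts and neoplastic masses of c-MYC mice. Another entry there names primary tubular epithelial cells, and the labels were followed.

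Peaks were intersected (at least 1 bp) with GENCODE M21 coding gene bodies on chromosomes 1 to 19, merged by symbol, in Python 3.11.15 with numpy 2.4.6, scipy 1.17.1 (Clopper-Pearson intervals), samtools 1.23.1 and matplotlib 3.10.9. A readthrough gene is one whose coding transcripts all carry that tag. Sequence came from RefSeq GRCm38.p6; 99.1% of GENCODE coding transcripts with a complete start began with ATG in it. Word uniqueness was counted over 32 bases on chromosomes 1 to 19, X and Y, both strands, exact matches. The pair rule was checked on simulated data. Per-sample columns left unused numbered 0.

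Members and lists were chosen with earlier results of these data known. Genes named are Setd2, for each relation the up to 8 pairs with most control bases and up to 4 with most Setd2-KO bases, the 5 peaks of highest fold enrichment per list, and up to 4 genes per functional list. Some genes that meet this rule are not reported here. Wdr48 and Csrnp1 were named after their values were seen. The grouping of overlaps by genes with peaks of their own, the RefSeq bodies and the set without readthrough and predicted genes were added after seeing the data. Alternatives tried were gene sets, thresholds on fold enrichment and q, overlap rules, and leaving out zinc finger genes.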

Additional observations from a re-analysis of the deposited data

How the results depend on the processing

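The number of peaks in overlapping coding genes depended on the annotation and on the fold enrichment threshold. Control and Setd2-KO counts of 544 and 106 became 317 and 63 without readthrough genes, 266 and 43 without predicted gene names, 261 and 43 with neither, 197 and 45 with RefSeq coding bodies, and 187 and 54 at a fold enrichment of at least 4. Same-strand control peaks fell from 259 to 49 without readthrough genes and 37 without predicted names, and divergent ones from 14 to 3 without predicted names. The share of control peaks that overlapped a Setd2-KO peak (12.9%) was 20.96% when peaks within 1 kb also counted (20.96% of peaks in 1 gene as well), 23.5% at a fold enrichment of at least 4 (20.6% of peaks in 1 gene), 10.2% without predicted names, 9.69% without zinc finger genes and 17.8% with RefSeq bodies. Genes marked through shared peaks alone went from 324 to 209 in the control and from 116 to 70 in Setd2-KO without readthrough genes. Counting a gene as marked when a peak shared with its partner spilled into its own sequence gave convergent shares of 8.62%, 18.4% and 46.7% in place of 10.1%, 20.8% and 31.0%. The RefSeq set and the set with neither kind of gene were chosen after seeing the data.

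No paired analysis was possible because each genotype had 1 ChIP library and the labels carry no shared replicate numbers, and leaving out a replicate would leave no data. A peak missing from a list was not detected at its threshold, not absent.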
